A study of Mus musculus with 2 samples.

Results

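The noncoding RNAs Malat1, Neat1, Lncenc1 and Snhg12, were followed across 2 single-cell RNA libraries of mouse induced pluripotent stem cells. The genes were chosen from a list of 7 by name, with earlier values from these libraries in view, and 4 of the 27998 genes counted in the libraries are described. Gas5, Snhg1 and Snhg3, the other listed snoRNA host genes, were not analysed here. Because the choice rested on the RNAs' level, share of cells and knockout over wild-type ratio by mitochondrial share, those values are a description.

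The first library was made from cells with both Srf alleles deleted (SRFΔ/Δ, called knockout here) and the other from cells with both alleles floxed and intact (SRFf/f, called wild type). Srf encodes serum response factor, a transcription factor that binds a DNA element named the CArG box. Both cultures were grown in medium with serum, and the cells were captured on the 10x Genomics Chromium droplet platform. The clone, passage and way of recombination are not given in the sources used here, and each genotype had 1 library, so there is no replicate check and no p-value. All intervals are at 95% and cover counting error only, not the spread between cultures or library preparations.

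Cells with at least 1000 detected genes were kept, 1068 knockout and 952 wild-type cells. They were split by the share of a cell's UMIs (unique molecular identifiers, each standing for 1 captured RNA molecule) that came from the 13 mitochondrially encoded mt- genes. In the knockout library 244 cells were under 1%, 753 were from 1 to 10% and 71 were over 10%. In the wild-type library the numbers were 17, 902 and 33. Median depth in the knockout classes, in the same order, was 8632, 24434 and 7668 UMIs per cell, and in the wild-type classes 16100, 26601.5 and 7054 UMIs. The knockout library held 17 Srf UMIs, 14 of them in 25 fibroblast-like cells, against 209 Srf UMIs in the wild-type library. All 10 pluripotency markers examined had UMIs in each of the 6 groups, with a summed level of 8946 to 11938 CPM (a gene's counts over all UMIs of the summed cells, times 1e+06) in the knockout classes and 9240 to 13303 CPM in the wild-type classes. Summed markers of fibroblasts, the cells commonly used as feeders, lay between 11.95 and 264 CPM in the knockout classes and between 49.6 and 231 CPM in the wild-type classes. The libraries shared 2 cell barcodes.

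As background, Malat1 and Neat1 are long noncoding RNAs that stay in the nucleus. Malat1 collects at nuclear speckles, bodies rich in splicing factors, and Neat1 is the scaffold on which paraspeckles form. Lncenc1 is a long noncoding RNA of the pluripotent state, abundant in embryonic stem cells. Snhg12 is a snoRNA host gene: small nucleolar RNAs, which guide chemical modification of ribosomal RNA, are cut from its introns, and its spliced RNA is exported and is a typical substrate of nonsense-mediated decay.

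Malat1 (ENSMUSG00000092341) lies on the minus strand at chr19:5795690-5802672 of GRCm38, and Neat1 (ENSMUSG00000092274) lies beside it on the same strand at chr19:5824708-5845478. The longest annotated transcript of each is a single exon, of 6983 bases for Malat1 and 20771 bases for Neat1. Lncenc1 (ENSMUSG00000078952) is on the plus strand at chr13:97434970-97497007, with a longest spliced transcript of 2764 bases in 3 exons. Snhg12 (ENSMUSG00000086290) is on the plus strand at chr4:132308623-132311024, with a longest spliced transcript of 1538 bases in 4 exons. It encloses 4 annotated snoRNAs, Snora16a, Snora44, Snora61 and Snord99. Droplet libraries commonly prime on stretches of A, so the longest run of A in each nuclear RNA is shown in capitals, from the GENCODE M21 transcripts, at bases 6674 to 6685 of Malat1 and 9539 to 9545 of Neat1, with 40 bases on each side. The product of the host gene is shown by Snord99 (chr4:132310691-132310764, plus strand), a guide of ribose methylation, with the letters TGATGA (box C) and CTGA (box D) of its class in capitals.

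Malat1: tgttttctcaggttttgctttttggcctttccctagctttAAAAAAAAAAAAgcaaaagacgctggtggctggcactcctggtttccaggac
Neat1: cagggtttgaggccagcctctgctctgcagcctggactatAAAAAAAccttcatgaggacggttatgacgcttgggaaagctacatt
Snord99: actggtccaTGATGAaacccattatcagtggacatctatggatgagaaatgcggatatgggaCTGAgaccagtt

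The longest run held 12 A in Malat1 and 7 in Neat1, and those of Lncenc1 and Snhg12 held 6 and 12. The deposited counts do not say where on a transcript a molecule was primed.

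Transcription starts were compared because the knockout removes a DNA-binding factor and because snoRNA host genes often begin, like ribosomal protein genes, with a run of pyrimidines. The stretches run from 50 bases before to 50 bases after the start, from RefSeq on GRCm38.p6, with the pyrimidines that follow in a row from the first transcribed base in capitals. They lie at chr19:5802623-5802722 (minus strand), chr13:97434920-97435019 and chr4:132308628-132308727 (both plus strand). Neat1 has no entry in that table.

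Malat1: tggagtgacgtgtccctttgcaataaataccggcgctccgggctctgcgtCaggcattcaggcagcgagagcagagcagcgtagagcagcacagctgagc
Lncenc1: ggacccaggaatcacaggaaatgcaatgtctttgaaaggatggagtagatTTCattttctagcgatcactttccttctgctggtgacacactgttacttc
Snhg12: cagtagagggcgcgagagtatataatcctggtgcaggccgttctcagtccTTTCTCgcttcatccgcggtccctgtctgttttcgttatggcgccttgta

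Snhg12 opened with 6 pyrimidines, Lncenc1 with 3 and Malat1 with 1. Runs of at least 5 opened 4.44% of the 32851 promoters in the table. A CArG box, searched on both strands of the 300 bases around each start, was found in 1.63% of those promoters and in none of these 3. That says only that these letters are not in this window.

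Malat1 differed several-fold between the classes. In the knockout library it stood at 1503 CPM in cells under 1% mt- share (interval 1458 to 1548), 9185 CPM from 1 to 10% (9141 to 9228) and 14382 CPM over 10% (14076 to 14693). In the wild-type library it stood at 16567 CPM under 1%, 6013 CPM from 1 to 10% and 16753 CPM over 10%. The knockout cells of low mt- share were thus 6.11-fold below the knockout cells of the middle class in Malat1, while the few wild-type cells of low mt- share were 2.76-fold above theirs. In both libraries the class over 10% was the higher of the 2 upper classes, by 1.57-fold among knockout and 2.79-fold among wild-type cells.

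The summed levels of the cells under 1% hide a wide spread from cell to cell. A single knockout cell held 41.6% of that class's 4274 Malat1 UMIs, and the median cell stood at 53.0 CPM, against 6967 CPM in the median knockout cell of the middle class. Malat1 was below 2000 CPM in 225 of the 244 knockout cells under 1%, in 104 of 753 from 1 to 10% and in 15 of 71 over 10%. In the wild-type library it was below that level in 10 of 17, 58 of 902 and 5 of 33 cells. No Malat1 UMI at all was counted in 113 of the 244 knockout cells under 1% and in 4 of the 902 wild-type cells of the middle class.

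Among the 17 wild-type cells under 1%, a fibroblast-like cell held 1917 of the 4870 Malat1 UMIs and 19 of the 22 Neat1 UMIs. The median of the 17 was 904 CPM of Malat1, below the 5240 CPM of the median wild-type cell of the middle class. The summed level and the median cell thus lie on opposite sides of the middle class in the wild-type library.

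**Figure D1:**
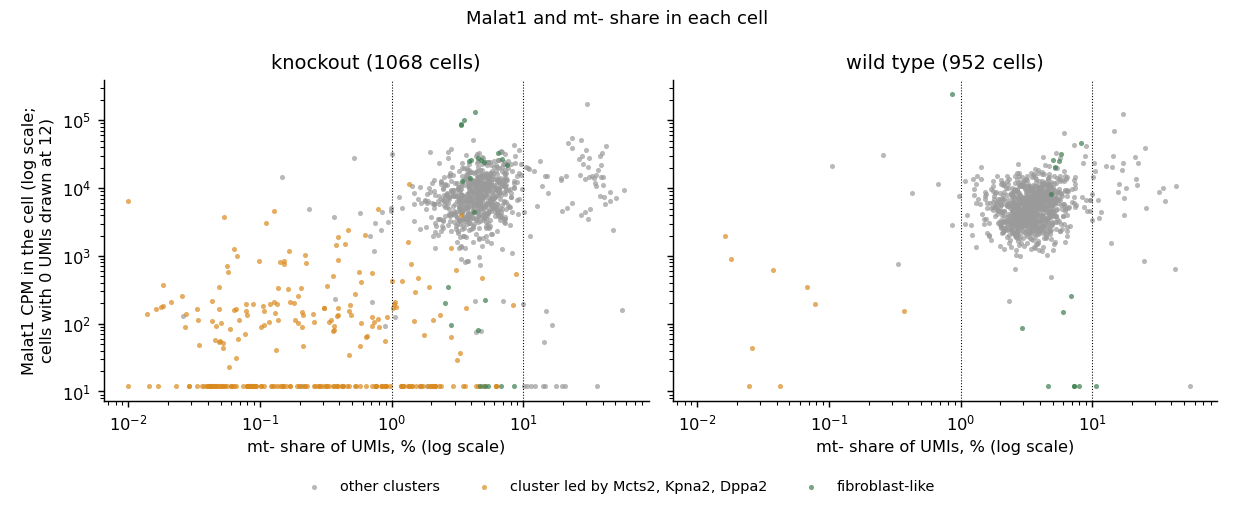
Each point is a cell, with its mt- share of UMIs on the x axis (%, log scale; the smallest shares sit at the left edge) and its Malat1 CPM on the y axis (log scale; cells without a Malat1 UMI form the lowest row), for 1068 knockout and 952 wild-type cells. Dotted lines mark 1% and 10%, and colours mark the cluster led by Mcts2, Kpna2 and Dppa2, the fibroblast-like cluster and all others. In the knockout the low-Malat1 cells are mostly of the first cluster. In the wild type that cluster held 9 cells, while 73 cells were below 2000 CPM.

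Depth was lower in the knockout cells under 1% than in the middle class, so cells were also compared at like depth. Among cells with 5000 to 15000 UMIs, Malat1 stood at 285 CPM under 1% (171 cells, 257 to 314), 7304 CPM from 1 to 10% (113 cells) and 13645 CPM over 10% (61 cells) in the knockout. In the wild type the same range gave 7929 CPM from 1 to 10% (157 cells) and 17568 CPM over 10% (31 cells). The order of the knockout classes was the same at like depth, and in the middle class the knockout level was no longer above that of the wild type. Only depth was matched here, not the mix of clusters. With each cell thinned to 5095 UMIs, a Malat1 UMI was found in 37.5% of knockout cells under 1% (31.1 to 44.2, 224 cells), 93.6% from 1 to 10% (91.5 to 95.2, 745 cells) and 79.7% over 10% (67.8 to 88.7, 64 cells). The wild-type shares were 82.4%, 99.6% and 93.1% over 17, 896 and 29 cells. Without thinning the 3 knockout shares were 53.7%, 94.4% and 85.9%.

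Neat1 was counted far less often and followed Malat1 in the knockout classes. Its knockout levels were 6.33 CPM under 1% (18 UMIs, 3.75 to 10.0 CPM), 56.8 CPM from 1 to 10% (1069 UMIs, 53.4 to 60.3) and 94.4 CPM over 10% (55 UMIs, 71.1 to 123). Its wild-type levels were 74.8, 28.6 and 76.4 CPM from 22, 670 and 20 UMIs. Under 1% it was 8.73-fold below the middle class in the knockout, and the class over 10% was above the middle class by 1.68-fold among knockout and 2.74-fold among wild-type cells. The first wild-type value rests on the single fibroblast-like cell named above. After thinning, a Neat1 UMI was found in 1.34% of knockout cells under 1% (0.277 to 3.86), 16.6% from 1 to 10% (14.0 to 19.5) and 29.7% over 10% (18.9 to 42.4), and in 11.6% of wild-type cells from 1 to 10% (9.58 to 13.9).

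Fibroblast-like cells carried a large part of the Neat1 signal. The 25 knockout cells of that cluster held 352 of the library's 1142 Neat1 UMIs, a level of 529 CPM, and the 15 wild-type cells stood at 775 CPM. Malat1 summed to 28317 and 25270 CPM in the same cells, although 5 of the 25 and 5 of the 15 had no Malat1 UMI. The median cell of that cluster stood at 14087 CPM of Malat1 in the knockout and 257 CPM in the wild type. The macrophage-like cluster, 7 knockout and 4 wild-type cells, stood at 322 and 301 CPM of Neat1.

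Lncenc1 differed between the libraries and hardly at all between the classes. Its knockout levels were 15.5 CPM under 1% (11.2 to 20.8), 19.8 CPM from 1 to 10% (17.9 to 21.9) and 15.4 CPM over 10% (7.06 to 29.3), from 44, 373 and 9 UMIs. Its wild-type levels were 81.6 CPM (52.3 to 121), 82.0 CPM (78.4 to 85.7) and 95.4 CPM (61.8 to 141), from 24, 1922 and 25 UMIs. The intervals of the 3 classes overlapped within each library, and none of the knockout intervals reached a wild-type one. After thinning, a Lncenc1 UMI was held by 8.33% of the knockout cells (6.71 to 10.2) and 28.3% of those of wild type; the wild-type share averaged over all possible draws was 31.6%. Before thinning the shares were 20.6% and 69.3%. Among fibroblast-like cells, taken as cells that should lack this RNA, a UMI was found in 1 of 25 knockout cells (median depth 23629 UMIs). It was found in 0 of 15 wild-type cells (median depth 10217 UMIs). With a count of 0 read as up to 3, that allows a share of up to 20%, and the Clopper-Pearson limit is 21.8%.

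Snhg12 lay between these patterns. Its knockout levels were 41.1 CPM under 1% (34.0 to 49.3), 102 CPM from 1 to 10% (97.8 to 107) and 129 CPM over 10% (101 to 161). Its wild-type levels were 126 CPM (88.6 to 173), 109 CPM (104 to 113) and 103 CPM (67.9 to 150). The knockout cells under 1% stood apart, 2.48-fold below the middle class of their own library, and the intervals of the other classes overlapped with one or more of the rest. Of the 37 wild-type UMIs under 1%, 14 came from 1 cell. A Snhg12 UMI was found in 13.8% of thinned knockout cells under 1% (9.60 to 19.1), 33.4% from 1 to 10% and 39.1% over 10%, and in 37.7% of wild-type cells from 1 to 10%.

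**Figure D2:**
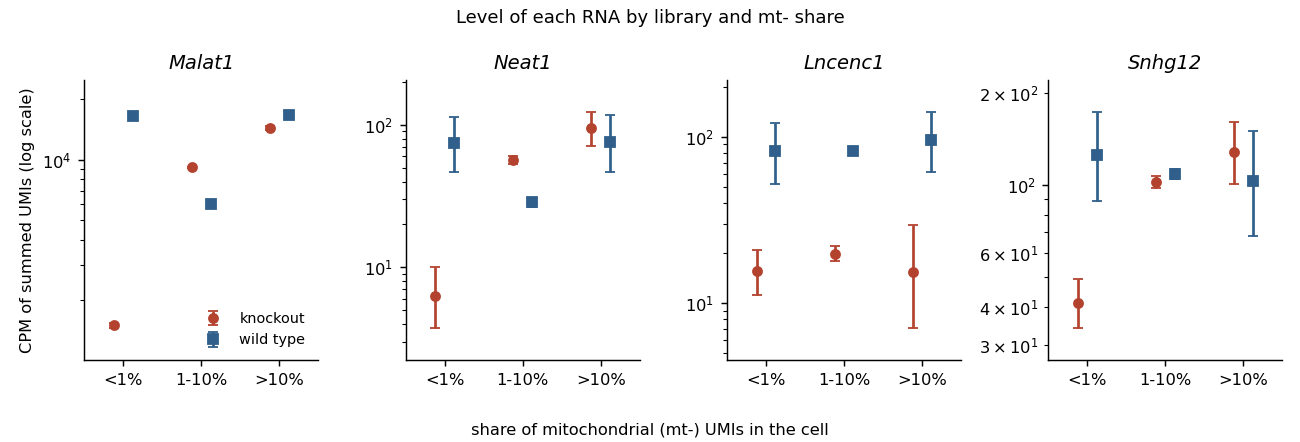
Summed level of each RNA (CPM, log scale, with its own range in each panel) against mt- class, with knockout as circles and wild type as squares; bars are 95% counting intervals. Malat1, Neat1 and Snhg12 are lowest in knockout cells under 1%, at 1503, 6.33 and 41.1 CPM, whereas the Lncenc1 intervals of the 2 libraries stay apart in each class.

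The ratio of knockout over wild type depended on the class for 3 of the 4 RNAs. Over all cells the log2 ratio was 0.41 for Malat1 (0.40 to 0.42), 0.79 for Neat1 (0.65 to 0.93), -2.10 for Lncenc1 (-2.26 to -1.95) and -0.19 for Snhg12 (-0.28 to -0.11). Past a fold of 1.5 were Neat1, higher, where 5.44% of the 6549 genes averaging 10 CPM or more were higher, and Lncenc1, lower, where 2.41% were lower. In the 1 to 10% class the log2 ratios were 0.61 for Malat1 (0.60 to 0.62), 0.99 for Neat1 (0.85 to 1.13), -2.05 for Lncenc1 (-2.21 to -1.89) and -0.09 for Snhg12 (-0.17 to -0.00029). There 2 were higher and 1 lower past that fold, beside 7.79% and 2.46% of all genes tested.

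The Malat1 and Neat1 ratios over all cells moved with depth and with the mix of cells. Among cells of 5000 to 15000 UMIs, the Malat1 ratio was -0.99 and the Neat1 ratio -0.89, the reverse of the values over all cells, and the Lncenc1 ratio was -2.36. The mix of classes differs there too, with 171 of 345 knockout and 8 of 196 wild-type cells under 1%. Within the 1 to 10% class that depth range gave -0.12 for Malat1 (-0.16 to -0.08), -0.02 for Neat1 (-0.61 to 0.55), -1.98 for Lncenc1 (-2.71 to -1.36) and -0.60 for Snhg12 (-1.04 to -0.18). The higher Malat1 and Neat1 of the knockout in that class were thus not seen in this depth range, while Lncenc1 was lower. The mix of clusters was not matched by that range. A shallow cluster led by Mcts2 and described below (the Mcts2-led cluster, median 8178 UMIs) held 58 knockout cells of the 1 to 10% class, at 377 CPM of Malat1. All 9 of its wild-type cells were under 1%. The parts of depth and of cluster mix were not tested. From 1 to 10%, the summed level of primitive endoderm markers was 446 CPM for the knockout against 18.7 CPM for the wild type, and 106 knockout cells but 1 wild-type cell fell in the primitive endoderm-like cluster. Without the fibroblast-like, macrophage-like and primitive endoderm-like clusters the Neat1 ratio over all cells was 0.32 and the Malat1 ratio 0.38.

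Under 1% all 4 were lower in the knockout, beside 36.2% of all genes tested, with log2 ratios of -3.46 for Malat1, -3.56 for Neat1, -2.41 for Lncenc1 and -1.63 for Snhg12. These ratios are set against only 17 wild-type cells. Without fibroblast-like cells the Malat1 ratio was -2.78 and the Neat1 ratio -0.91. Over 10% the ratios were -0.22 for Malat1 (-0.27 to -0.17), 0.28 for Neat1 (-0.46 to 1.12), -2.58 for Lncenc1 (-3.91 to -1.48) and 0.30 for Snhg12 (-0.33 to 1.01), with 1 lower beside 27.4% of genes tested and none higher beside 14.5%. Summed macrophage markers over 10% stood at 381 CPM in the knockout against 22.9 CPM, and without the fibroblast-like, macrophage-like and primitive endoderm-like clusters the Neat1 ratio there was -0.24. The Malat1 interval excluded 0 in each class, with the knockout higher in the middle class only. Lncenc1 alone of the 4 was lower by more than 4-fold in each class.

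The libraries also differed in their mix of classes: the share under 1% was 22.8% in the knockout library (20.4 to 25.5) and 1.79% in the wild-type library (1.04 to 2.84). When the knockout classes were weighted by the wild-type library's UMI shares, the log2 ratios became 0.55 for Malat1, 0.93 for Neat1, -2.06 for Lncenc1 and -0.09 for Snhg12. Malat1 and Neat1 moved away from 0 by this weighting and Snhg12 moved toward it.

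Finer ranges of mt- share showed where the knockout levels changed. Malat1 stood at 525 CPM below 0.5% (197 cells), 4973 CPM from 0.5 to 1% (47 cells) and 4884 CPM from 1 to 2% (56 cells), each range above the one below 0.5% being higher than it. In the range from 0.5 to 1%, a single cell with a mt- share of 0.9999% held 1777 of the 3109 UMIs, and without it the level was 2339 CPM, between those of the neighbouring ranges. From 2% on Malat1 was higher in each further range up to 12562 CPM at 8 to 10% (27 cells). It was 7443 CPM at 10 to 20% (26 cells), below the middle class as a whole, and 19361 CPM over 20% (45 cells). In the knockout the higher level over 10% thus came from the cells over 20%. In the wild type Malat1 was 6588 CPM at 1 to 2% (63 cells), 5070 CPM at 2 to 3%, 5754 CPM at 3 to 4%, 6759 CPM at 4 to 6% and 9103 CPM at 6 to 8% (41 cells). Above that it was 20391 CPM at 8 to 10% (13 cells), 18446 CPM at 10 to 20% (20 cells) and 13135 CPM over 20% (13 cells). Malat1 was thus higher with mt- share from 2 to 8% in both libraries. Median depth at 2 to 3% and at 6 to 8% was 28209 and 21134.5 UMIs in knockout cells, and 30015 and 10666 UMIs in wild-type cells.

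Neat1 had a like course in the knockout, with 0.90 CPM below 0.5%, 22.4 CPM at 1 to 2% and 94.5 CPM at 6 to 8%. In the wild type it was 15.1 CPM at 2 to 3% and 62.1 CPM at 6 to 8%. Lncenc1 lay between 79.2 and 102 CPM in the wild-type ranges from 1 to 8%. In the knockout it was 9.93 CPM at 2 to 3% and 35.8 CPM at 6 to 8%, so the distance between the libraries was smaller at 6 to 8% than at 2 to 3%. At 8 to 10% Lncenc1 was 51.9 CPM (32.1 to 79.4) in 27 knockout cells and 85.0 CPM (43.9 to 149) in 13 wild-type cells. The intervals of the libraries overlapped in that range. The distance was wide again at 10 to 20%, with 8.22 CPM in the knockout and 101 CPM in the wild type.

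Snhg12 ran the other way in the wild type. There it was 257 CPM at 1 to 2%, 116 CPM at 2 to 3%, 99.4 CPM at 3 to 4%, 75.1 CPM at 4 to 6% and 62.1 CPM at 6 to 8%. In the knockout it was 173 CPM at 1 to 2%, 117 CPM at 2 to 3%, 90.9 CPM at 4 to 6% and 101 CPM at 6 to 8%. In wild-type cells of 2 to 8% the nuclear RNAs were thus higher, and Snhg12 lower, with greater mt- share. Depth was lower at the upper end of these ranges, and its part was not tested. Fibroblast-like cells held 156 of the 670 wild-type Neat1 UMIs from 1 to 10%. The 7 host genes summed did not share the course of Snhg12: they stood at 668, 683, 680 and 630 CPM in the same 4 wild-type ranges and at 710, 683, 729 and 792 CPM in those of the knockout.

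**Figure D3:**
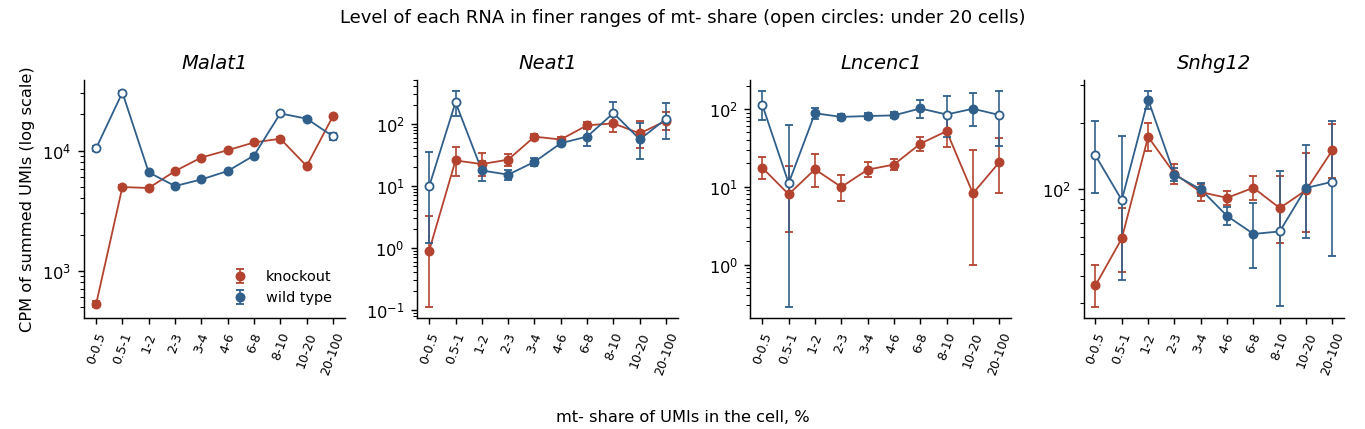
Summed level of each RNA (CPM, log scale) in 10 ranges of mt- share (x axis, %), knockout in red and wild type in blue, with 95% counting intervals; open circles are ranges of under 20 cells. Knockout Malat1 is 525 CPM below 0.5% and 4973 CPM from 0.5 to 1% (2339 CPM without 1 cell), and wild-type Snhg12 runs from 257 CPM at 1 to 2% down to 62.1 CPM at 6 to 8%.

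Cells of low mt- share were mostly of 1 cluster. Cells of both libraries were clustered together without the mt- genes, Srf and the listed RNAs. A cluster led by Mcts2, Kpna2 and Dppa2, which met no marker rule and has no cell type name, took 224 of the 244 knockout cells under 1%, 58 knockout cells from 1 to 10% and 9 of the 17 wild-type cells under 1%. Its cells had a median of 8178 UMIs and 0.203% mt- share. Malat1 was 227 CPM (209 to 247) in its knockout cells under 1%, 377 CPM (330 to 428) in its knockout cells from 1 to 10% and 284 CPM (187 to 414) in its 9 wild-type cells. Low Malat1 was thus seen in this cluster on both sides of the 1% limit and in both libraries. With the cluster left out, the log2 ratio of knockout cells under 1% to those from 1 to 10% was -0.0096 for Malat1, -0.49 for Neat1, 0.47 for Snhg12 and -1.64 for Lncenc1, over the 20 cells under 1% that were left. A single cell held 1777 of the 3717 Malat1 UMIs in those 20, and without it the Malat1 ratio was -0.73 (-0.79 to -0.66). Neat1 was 0.98 CPM in its 282 knockout cells and was not counted in its 9 wild-type cells. Snhg12 was 25.1 and 21.1 CPM there, and Lncenc1 was 18.5 CPM in knockout cells and 137 CPM (72.9 to 234) in those of wild type.

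Outside that cluster, low mt- share went with other levels. The 8 knockout cells under 1% in the cluster led by RP23-4H17.3 and Hist1h2ap stood at 15797 CPM of Malat1, with 1 cell holding 1777 of their 3212 UMIs, and the 9 in the primitive endoderm-like cluster at 2775 CPM. The 8 wild-type cells under 1% outside the Mcts2-led cluster ranged from 763 to 242107 CPM of Malat1, and the 9 inside it from 0 to 1934 CPM.

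The larger clusters gave the levels of most cells. In the cluster led by RP23-4H17.3, 551 knockout cells stood at 9272 CPM of Malat1, 31.1 of Neat1, 21.7 of Lncenc1 and 114 of Snhg12, and 21 wild-type cells at 7700, 18.0, 95.3 and 84.5 CPM. In the pluripotent-like cluster, 643 wild-type cells stood at 5542 CPM of Malat1, 21.2 of Neat1, 85.7 of Lncenc1 and 112 of Snhg12. Lncenc1, although not among the clustered genes, was among the 10 genes of highest fold in that cluster. Its 12 knockout cells stood at 5471 CPM of Malat1 and 36.7 CPM of Lncenc1 (19.6 to 62.8). The 106 knockout cells of the primitive endoderm-like cluster had 104 CPM of Neat1 and 10.3 CPM of Lncenc1. A wild-type cluster led by Rhox6 and Igf2 (50 cells) stood at 19.9 CPM of Lncenc1 (13.1 to 28.9), a level within the knockout range. Because several clusters came mostly from 1 library, library and cell state cannot be told apart in them.

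Nuclear-retained RNAs and snoRNA host genes were then set side by side over wider lists. In knockout cells under 1%, against those from 1 to 10%, the log2 ratio was -2.61 for Malat1 (-2.66 to -2.57), -3.13 for Neat1 (-3.93 to -2.50), -0.34 for Lncenc1 (-0.84 to 0.10) and -1.31 for Snhg12 (-1.60 to -1.04). Of the 4, 3 were lower past 1.5-fold, beside 34.6% of the 6084 genes tested, and none was higher, beside 17.8%. Of 10 other nuclear-retained noncoding RNAs counted, 4 averaged 10 CPM over the 2 classes. All 4 were under 10 CPM in the class under 1% and passed only through the class from 1 to 10%, so their lower level was set by that limit and is no support for the pattern. Meg3, an imprinted RNA that also led the fibroblast-like cluster, stood at -6.76 from 2 UMIs (-10.13 to -5.23). Kcnq1ot1, which silences an imprinted domain in cis, stood at -3.56 (-4.45 to -2.88), and Tsix, the antisense partner of Xist, at -2.89 (-4.31 to -1.93). The fourth, Pvt1, stood at -0.87 (-1.60 to -0.27). Tsix and Xist overlap, and the counting is not stated to use strand.

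Of 7 snoRNA host genes counted, Snhg12 included, 6 reached the level limit and 4 were lower. Of these 4, Snhg18 and Snhg20 passed only through the class from 1 to 10%, so the count is no support either. Snhg20 stood at -1.81 (-2.45 to -1.28) and Snhg18 at -1.57 (-2.33 to -0.96). Snhg6 at -0.50 (-0.61 to -0.39) and Epb41l4aos at -0.38 (-0.55 to -0.21) were inside the fold. Snhg9 stood at -0.76 (-1.25 to -0.34). Snhg11, below the level limit, stood at -4.18 from 2 UMIs (-7.55 to -2.64). The 6 host genes that reached the limit thus lay above Malat1 and Neat1, Snhg11 lay below them, and the difference between the 2 kinds of RNA has no test.

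Over 10%, against 1 to 10%, the log2 ratio was 0.65 for Malat1 (0.62 to 0.68), 0.75 for Neat1 (0.31 to 1.12), -0.28 for Lncenc1 (-1.50 to 0.58) and 0.34 for Snhg12 (-0.02 to 0.66) in the knockout. Of the 4, 2 were higher past 1.5-fold, beside 24.8% of genes tested, and none lower, beside 22.2%. In the wild type the ratios were 1.48 (1.43 to 1.52), 1.45 (0.70 to 2.06), 0.25 (-0.41 to 0.79) and -0.05 (-0.68 to 0.47). There 2 were higher beside 37.5% and none lower beside 15.2%. With mt- UMIs left out of the total, the Malat1 ratio was 1.01 for knockout and 1.73 for wild-type cells. Among the other nuclear-retained RNAs, 2 of 5 were higher and 1 was lower in the knockout. In the wild type 1 of 3 was higher and 1 lower. Kcnq1ot1 was higher in both libraries, at 0.99 and 1.995. Meg3 was lower in both, at -5.21 and -3.66, from 1 and 0 UMIs over 10%. It passed the level limit in both libraries only through the class from 1 to 10%, so its lower calls were set by that limit. Among the host genes 1 of 7 was higher and 2 were lower in the knockout, and 3 of 6 were higher and 2 lower in the wild type. Snhg18, 1 of the 2 lower in the knockout, was at 5.15 CPM over 10%. It too passed the limit only through the class from 1 to 10%. Epb41l4aos (-0.82 and -1.31) was lower in both libraries. Under 1% against 1 to 10% in the wild type, 2 of the 4 RNAs (Malat1 1.46, Neat1 1.42) were higher beside 28.2% of genes tested and none was lower beside 15.2%, a comparison that rests on 17 cells. Without fibroblast-like cells the Malat1 value was 0.81 (0.75 to 0.86) and the Neat1 value turned to -0.86 (-3.36 to 0.48), from 3 UMIs.

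**Figure D4:**
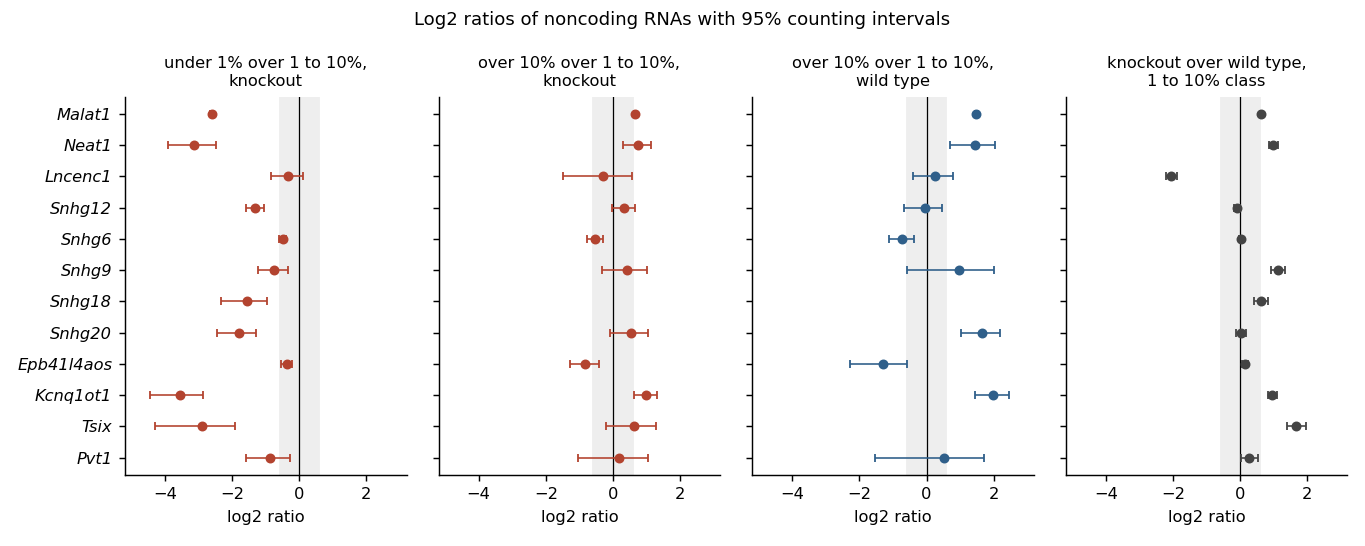
Log2 ratios with 95% counting intervals for the 4 RNAs, 5 further host genes and 3 further nuclear RNAs, in 4 comparisons; the grey band spans 1.5-fold either way, and genes with under 4 UMIs in a group are not drawn. In knockout cells under 1% (left), Malat1 at -2.61, Neat1 at -3.13 and Kcnq1ot1 at -3.56 lie furthest to the left with Tsix. The host genes drawn lie between -1.81 and -0.38, and the host gene Snhg11, at -4.18 from 2 UMIs, is not drawn. Kcnq1ot1, Tsix, Pvt1, Snhg18 and Snhg20 passed the level limit there only through the class from 1 to 10%. Their places are thus no support for a contrast.

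Genes of the bodies and pathways these RNAs belong to were examined in the same comparison of knockout cells under 1% with those from 1 to 10%. Of 8 paraspeckle proteins, 2 were higher and 1 lower past 1.5-fold, with a median of 0.12; Hnrnpk stood at 1.31 and Matr3 at -1.15. Of 10 nuclear speckle proteins, 3 were higher and 2 lower, with Srsf3, a splicing factor, at 0.92 and Srrm2, a scaffold of the speckle, at -1.30. Of 10 snoRNP proteins, which bind snoRNAs, 1 was higher (Fbl, the methyltransferase, at 0.82) and none lower, with a median of 0.47. Of 9 nonsense-mediated decay factors, none was higher and 6 were lower, with Smg5 at -3.06 and Smg1, the kinase of the pathway, at -2.24. Of 79 ribosomal protein genes, 2 were higher and 1 lower, with a median of 0.05. Over all genes tested, 17.8% were higher and 34.6% lower in this comparison. Among the decay factors, Smg1 and Smg5 passed the level limit only through the class from 1 to 10%.

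Over 10% against 1 to 10%, 63 of 78 ribosomal protein genes were lower in the knockout (median -0.85) and 60 of 78 in the wild type (median -0.72), beside 22.2% and 15.2% of all genes tested. The share of UMIs from ribosomal protein genes was 19.1% and 21.4% in these classes, against 34.1% and 35.4% from 1 to 10%.

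Transcript length moved with the class ratios over all genes, a comparison chosen after the data were seen. In knockout cells under 1% against 1 to 10%, the median log2 ratio was 0.05 over 417 genes with a longest spliced transcript under 1000 bases, 0.26 over 1308 genes from 1000 to 2000 bases and 0.19 over 1388 genes from 2000 to 3000 bases. It was -0.33 from 3000 to 5000 bases, -1.24 from 5000 to 8000 bases and -1.98 over 281 genes above that. Malat1 stood at the 11.3 percentile of the 753 genes of its length range and Neat1 at the 9.25 percentile of its own. Each of these 2 genes has 4 annotated transcripts and was placed by the longest, and the counts do not say which was captured. Lncenc1 stood at the 26.2 percentile and Snhg12 at the 4.59 percentile of theirs. Among genes of like length Snhg12 thus ranked below both nuclear RNAs, although its ratio was nearer to 0.

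Over 10% the medians ran the other way, from -0.48 in the shortest range to 0.60 in the longest for knockout cells and from -0.40 to 0.88 for wild-type cells. Malat1 stood at the 66.5 and 83.0 percentile of its range in the 2 libraries, and Neat1 at 57.5 and 75.1. In the knockout over wild-type comparison of the 1 to 10% class the medians ran from -0.07 to 0.24, and Malat1 stood at the 91.2, Neat1 at the 96.3, Snhg12 at the 43.8 and Lncenc1 at the 0.211 percentile of their ranges. The part of length in these ratios was not tested.

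**Figure D5:**
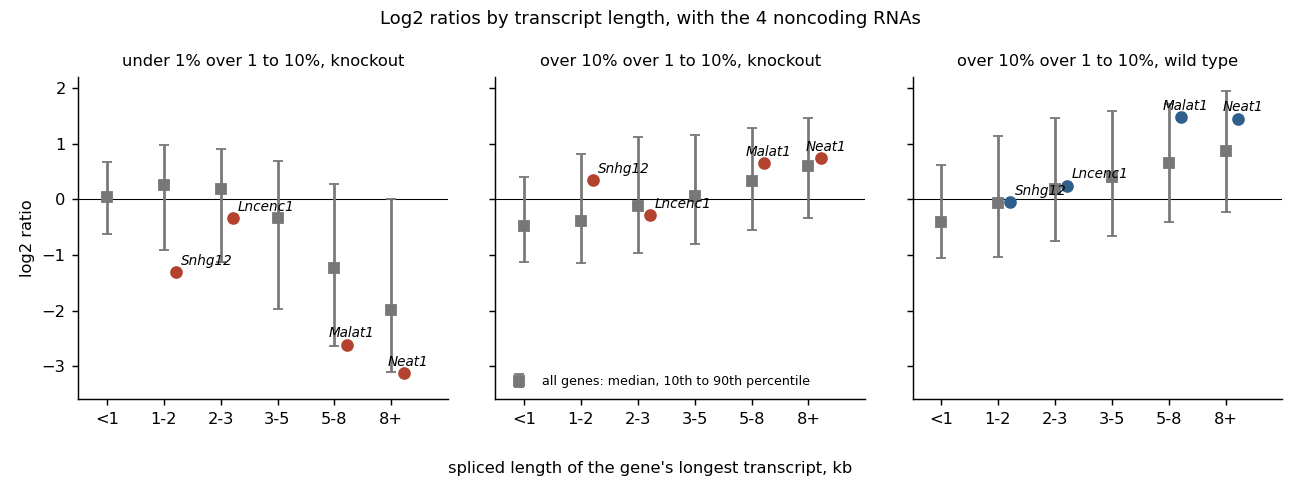
Median log2 ratio over all genes tested (grey squares, bars from the 10th to the 90th percentile) against the spliced length of the longest annotated transcript (kb), in 3 comparisons, with the 4 RNAs as coloured points at their own length range. The medians run from 0.05 down to -1.98 in knockout cells under 1% and from -0.48 up to 0.60 in those over 10%.

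Genes with the most similar course were named over 5 groups of cells, leaving out the 17 wild-type cells under 1%, by the root mean square difference of centred log2 CPM. Nearest to Malat1 of 2106 genes were Pds5a (0.14), Rrbp1 (0.19), Slc38a2, Jmjd1c and Enah, and among those nearest to Neat1 were Slc38a2 (0.20), Jmjd1c, Alkbh1 and Enah. Slc38a2, Jmjd1c and Enah were named for both nuclear RNAs. Pds5a stood at -2.65 in knockout cells under 1% against 1 to 10%. Nearest to Snhg12, which took the place of Gas5 in this step by a choice made after the data were seen, were Nucks1 (0.10), Caprin1, Srrm2, Cdk12 and Tspan3, and none of these was on the Malat1 or Neat1 list. Lncenc1 was set against 6944 genes, with at least 10 CPM in the 1 to 10% class of either library. The other RNAs were set against genes of at least 50 CPM in that class of both. Closest to Lncenc1 were 1300002E11Rik (0.48), Ccdc136, Ifitm1, Crb3 and Aire. Of these, Ifitm1 stood at -1.55 in knockout over wild type of the 1 to 10% class. Lncenc1 had only 9 and 25 UMIs over 10%, so its larger distances cannot be compared with those of the others.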

How the data were processed

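The 2 deposited count matrices, 1 per genotype, hold whole-number UMI counts per gene and cell, not normalised, per the file headers. The submitters' processing notes name Cell Ranger 2.0.0, Seurat 3.1.1 and build mm10 without roles; how reads shared by overlapping genes were counted is not given in the sources used here. The libraries held 1073 cells with 22277996 UMIs (knockout) and 954 cells with 24005849 UMIs (wild type); 5 and 2 cells with fewer than 1000 genes were left out. The members and lists were chosen with earlier results of these data known.

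Counts were summed over cells and scaled to CPM. Log2 ratios had 0.5 counts added to each sum, with intervals exact and conditional on the total; levels have exact Poisson and shares Clopper-Pearson intervals. Genes averaging 10 CPM or more were counted past 1.5-fold. Thinning to 5095 UMIs left out 35 knockout and 10 wild-type cells. Clusters and doublets (3 knockout and 5 wild-type cells called, kept) came from scanpy 1.11.5 (2000 variable genes, 30 components, 15 neighbours, Leiden resolution 0.5); so few calls may leave doublets. A cluster was named with 3 markers among its 50 genes of highest fold. Beside the members, text names came by rule: the 5 genes nearest in course and up to 3 of largest change per list; other genes were chosen after their values were seen. Some genes are not reported here. Lengths came from GENCODE M21, matched for 98.7% of genes. Alternatives used scalings of edgeR 4.0.16 and DESeq2 1.42.0 on summed counts. The ratio code was tested on simulated data.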

Additional observations from a re-analysis of the deposited data

Results flagged for a closer look

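Several ratios had opposite signs in groups compared the same way, each with a counting interval that left out 0 with all cells in, and the differences between them were not tested. Under 1% against 1 to 10% mt- share, Malat1 stood at -2.61 (log2) for knockout cells and 1.46 for wild-type cells, and Neat1 at -3.13 and 1.42. In knockout over wild type, Malat1 stood at -3.46 under 1%, 0.61 from 1 to 10% and -0.22 over 10%. Neat1 stood at -3.56 under 1% and 0.99 from 1 to 10% in that comparison. Without fibroblast-like cells, the wild-type Neat1 value under 1% against 1 to 10% was -0.86, of the same sign as that of the knockout, and that of Malat1 was 0.81. Each value under 1% involves the 17 wild-type cells or the 244 knockout cells of that class, and in the wild type 1 fibroblast-like cell held 39.4% of the Malat1 and 86.4% of the Neat1 UMIs. The Mcts2-led cluster took 224 of those 244 knockout cells and 9 of those 17 wild-type cells. Malat1 in these cells of the cluster was 227 CPM in the knockout and 284 CPM in the wild type.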

How the results depend on the processing

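Depth, the cells included and the class limits moved the log2 ratios more than the scaling did. For the ratios over all cells and under 1% against 1 to 10% in the knockout, 130 alternatives were tried. Of these, 83 moved a value by no more than the distance from the middle of its counting interval to an end. A further 44 moved it by more, and 3 reversed it. Lncenc1 over all cells stayed between -2.36 and -1.99 in the 15 tried; the -2.36 came with 5000 to 15000 UMIs. In knockout over wild type, that depth range gave -0.99 for Malat1, -0.89 for Neat1 and -0.70 for Snhg12. Leaving out the Mcts2-led cluster gave 0.62, 0.995 and -0.036, weighting cells alike 0.12, 0.47 and -0.30, and cells of 1 to 10% only 0.61, 0.99 and -0.086. Malat1 was 0.43 on non-mt- UMIs, 0.40 without mt- and ribosomal protein UMIs, 0.34 with TMM or median of ratios, 0.46 with at least 2000 genes, 0.35 without fibroblast-like cells, 0.46 without primitive endoderm-like cells and 0.38 without these and macrophage-like cells. Neat1 was 0.61 and 0.32 in the last 2 settings.

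For under 1% against 1 to 10% in the knockout, leaving out the Mcts2-led cluster gave -0.0096 for Malat1 (-0.73 without 1 further cell), -0.49 for Neat1, -1.64 for Lncenc1 and 0.47 for Snhg12. Depth of 5000 to 15000 UMIs gave -4.68, -5.25 and -0.92 for Malat1, Neat1 and Snhg12, and weighting cells alike -3.69 and -4.22 for Malat1 and Neat1. Limits of 0.5% and 5% gave -4.00, -5.46 and 0.14 for Malat1, Neat1 and Lncenc1, and limits of 2% and 20% gave -1.95 and -0.34 for Malat1 and Snhg12. Malat1 was -2.67 on non-mt- UMIs, -2.71 without mt- and ribosomal protein UMIs, -2.43 with TMM, -2.37 with median of ratios, -2.32 with at least 2000 genes, -2.50 without fibroblast-like cells, -2.73 without primitive endoderm-like cells and -3.33 without the cell of most Malat1 UMIs in each group. TMM and median of ratios moved every gene by 0.18 and 0.24 there. The 7 host genes summed gave -0.68 here and -0.013 over all cells. The causes were not tested. Among 160 alternatives for other results, 73 moved and 0 reversed. The shares of cells and the gene counts among them could not be labelled reversed. A gene count was labelled moved when it changed by more than 1.5-fold. Like depth within a class was not among the 160 either. In knockout over wild type from 1 to 10%, that setting gave -0.12 for Malat1, against 0.61 at all depths. The mix of clusters was not matched there. Over all cells, the 356 higher and 158 lower genes became 1276 and 596 with a minimum of 1 CPM, and 98 and 35 at 2-fold. No paired analysis was possible because there was 1 library per genotype. Low counts limit Neat1 and Lncenc1 most, with 18 and 9 UMIs in their thinnest knockout classes. Settings that leave out named clusters together, the Mcts2-led cluster or the top cell, and those by length, host sum, depth within a class or 1 to 10% only, were chosen after seeing the data.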
